A study of Homo sapiens with 8 samples.

Results

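HMLE cells carrying the Foxq1 label were set against 3 cancer lines without a transgene, as 4 of the 8 arrays of the series. The 4 arrays were chosen by their titles: HMLE/Foxq1 on one side, and SUM1315, MDA-MB231 and SUM159 on the other. HMLE/Foxq1 is the human mammary epithelial cell HMLE, a line made immortal by telomerase and SV40 large T, after stable transfection with Foxq1, a forkhead transcription factor. SUM1315, MDA-MB231 and SUM159 are breast cancer lines labelled basal-like, grown without a transgene. HMLE/LacZ (HMLE with the bacterial beta-galactosidase gene as control) and HMLE/Gcnt2 (HMLE with a glycosyltransferase gene) are given beside them to show which levels the HMLE arrays had in common, and both are stable transfectants too. SUM159/LacZ and SUM159/IRX5, stable transfectants of SUM159 with LacZ and with the homeobox gene IRX5, appear only where a result turns on them. Each of these groups is 1 array of total RNA, so replicate error is unknown and no test was made. The labels give neither the species of the transfected Foxq1 gene nor whether a culture was a clone or a pool.

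The comparison asks how far the HMLE array that carries the Foxq1 label resembled cancer lines with mesenchymal traits, and which of its levels set it apart. In the epithelial-mesenchymal transition, epithelial cells lose E-cadherin junctions, tight junctions and apical polarity and take up vimentin filaments, N-cadherin and a collagen-rich matrix. Repressors of the ZEB, SNAIL and TWIST families drive the change by silencing epithelial genes, and cells often stop part way, with genes of both states expressed together. Basal mammary cells are a special case, since they carry keratins 5 and 14 and hemidesmosomes yet share matrix and contractile genes with mesenchymal cells.

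The single FOXQ1 probe went against the label. FOXQ1 read 299 in the array labelled Foxq1, against 126 in SUM1315, 196 in MDA-MB231 and 1111 in SUM159, with HMLE/LacZ at 1641 and HMLE/Gcnt2 at 1378. It lay inside the range of the 3 lines and was lower than in the other HMLE arrays. A probe outside the construct would not see the transgene. Why FOXQ1 read less here than in the other HMLE arrays was not tested, and every direction below rests on the label. That array also stood apart by its probes. Among 781 genes with at least 2 probes above an intensity of 500 in any of the 4 arrays, 86 had 1 such probe at least 2-fold below all 3 lines while another did not lie below them. The same count was 0 of 800 genes for HMLE/LacZ and 3 of 806 for HMLE/Gcnt2. The opposite pattern, 1 probe at least 2-fold above the lines and another not above, was found in 6 genes for the array labelled Foxq1, 2 for HMLE/LacZ and 4 for HMLE/Gcnt2. Lower values in the array labelled Foxq1 can therefore rest on single probes, and the part of the probes in them was not tested.

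A gene was compared where at least 1 of the 4 arrays lay above the detection limit of 140.3, and values under the limit were raised to it. It was called higher when the array labelled Foxq1 lay at least 2-fold above the highest of the 3 lines, and lower when it lay at least 2-fold below the lowest. Of 12345 genes compared, 329 (2.67%) were higher and 187 (1.51%) were lower. Another 6716 genes (54.4%) lay inside the range of the 3 lines, and 5113 (41.4%) lay outside it by less than 2-fold. In 80 of the higher genes none of the lines exceeded the limit, in 32 of the lower genes the array labelled Foxq1 did not, and those folds are written as "at least". At the threshold, SPRR1A was just called with 2.0021-fold and CXXC5 just missed with 1.997-fold upward, while ADAM9 was called with 2.02-fold and TMEM267 missed with 1.996-fold downward.

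**Figure D1:**
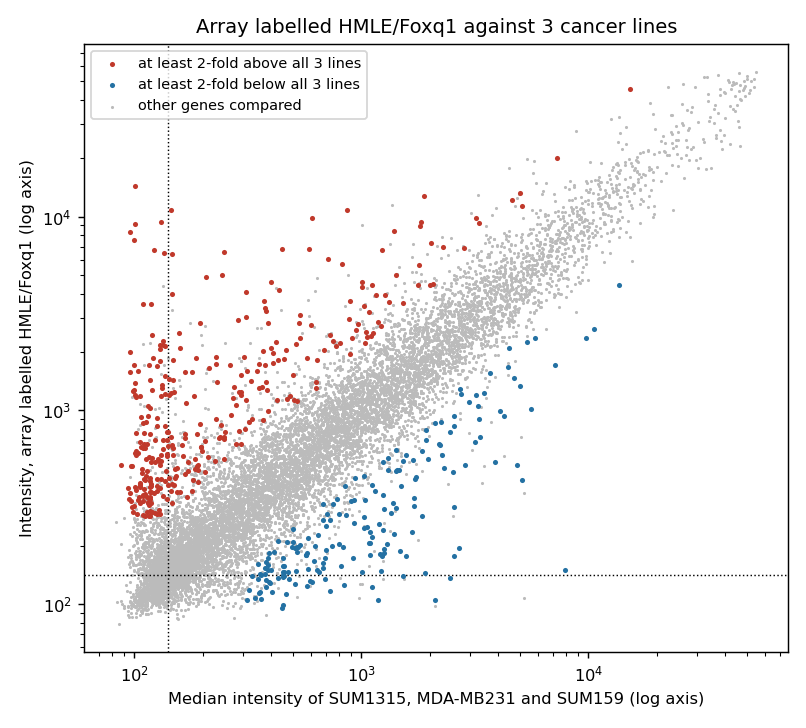
Intensity of each gene in the array labelled HMLE/Foxq1 (vertical, log axis) against the median of SUM1315, MDA-MB231 and SUM159 (horizontal, log axis), with the 329 higher genes in red, the 187 lower genes in blue and dotted lines at the detection limit of 140.3. Many higher genes stand above a background-level median of the lines, while the lower genes form a band under the diagonal.

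Across all genes the array labelled Foxq1 did not lie inside the range of the lines more often than the other HMLE arrays did, with 54.4% of genes against 59.3% for HMLE/LacZ and 55.6% for HMLE/Gcnt2. The discordant low probes of the array labelled Foxq1 (86 of 781 genes) enter this share and its shares below. Their part was not tested. HMLE/LacZ had 374 higher genes (3.03%) and 77 lower (0.624%) against the same 3 lines, and HMLE/Gcnt2 had 496 (4.01%) and 134 (1.08%). These 3 comparisons share the lines. Taken 1 line at a time, the array labelled Foxq1 lay at least 2-fold from SUM1315 in 19.5% of genes, from MDA-MB231 in 15.2% and from SUM159 in 13.8%. For HMLE/LacZ these shares were 19.3%, 13.1% and 12%, and for HMLE/Gcnt2 21.4%, 15.3% and 14.3%. Within the HMLE arrays, the array labelled Foxq1 lay 2-fold from HMLE/LacZ in 9.88% of genes, while HMLE/Gcnt2 and HMLE/LacZ lay that far apart in 0.801%. The lines were about as far from each other: SUM1315 lay 2-fold from MDA-MB231 in 19.3% of genes and from SUM159 in 16.5%, and MDA-MB231 from SUM159 in 12.7%. SUM159/LacZ and untransfected SUM159, which differ by stable transfection with LacZ, lay 2-fold apart in 2.83%.

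Each of the 4 arrays was also set against the other 3 in the same way. SUM1315 was the array that most often stood alone, with 426 genes higher (3.45%) and 288 lower (2.33%). The array labelled Foxq1 came next with its 329 and 187 genes. MDA-MB231 had 207 higher (1.68%) and 153 lower (1.24%), and SUM159 had 158 (1.28%) and 108 (0.875%). By this count the HMLE array was no more of an outlier than SUM1315.

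Keratins gave the 3 largest distances from the lines. KRT14, the type I keratin of basal epithelial cells, read 9157 in the array labelled Foxq1, against 103 in SUM1315, 101 in MDA-MB231 and 99.4 in SUM159, at least 65.3-fold higher. Its partner KRT5 read 8303, against 93.8 in SUM1315, 95.4 in MDA-MB231 and 98.4 in SUM159, at least 59.2-fold higher. All 3 lines lay under the detection limit for both keratins. HMLE/LacZ and HMLE/Gcnt2 read 16137 and 21430.0 for KRT14 and 11762 and 16941 for KRT5, so the array labelled Foxq1 was the lowest of the 3 HMLE arrays for both genes. KRT6C, a keratin of activated and wounded epidermis, read 14392 against 102 in SUM1315, 95.1 in MDA-MB231 and 101 in SUM159 (at least 103-fold higher), but its probe cannot be told apart from the near-identical paralogs KRT6A and KRT6B here. KRT16, the partner of keratin 6, read 1430.3 against 149 in SUM1315, 159 in MDA-MB231 and 145 in SUM159, 9.02-fold higher.

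In all, 13 of 24 genes of the basal and hemidesmosome list were higher and none was lower, beside 2.67% and 1.51% of all genes. The list median was 1.13 on the log2 distance scale, with 0 for all genes. SERPINB5 (maspin, a serpin of myoepithelial cells) read 9335, against 132 in SUM1315, 126 in MDA-MB231 and 1037 in SUM159. CDH3 (P-cadherin, the classical cadherin of basal cells) read 1718, against 160.4 in SUM1315, 116 in MDA-MB231 and 108 in SUM159. Both lay far outside the lines, 9-fold and 10.7-fold higher. LAMB3, a chain of the laminin that anchors hemidesmosomes, read 9872 against 108 in SUM1315, 2425 in MDA-MB231 and 609 in SUM159, 4.07-fold higher. ITGB4, the integrin of hemidesmosomes, was 8.61-fold higher by its brightest probe, with 1574 against 102 in SUM1315, 183 in MDA-MB231 and 167 in SUM159, and another of its detected probes did not lie above the lines. SUM159/IRX5 read 843, so ITGB4 was not called once the other SUM159 arrays were added. PKP1 (plakophilin-1 of desmosomes) read 1798, against 121 in SUM1315, 129.5 in MDA-MB231 and 134 in SUM159, by its brighter probe, at least 12.8-fold higher, while the other was near the limit in all 4 arrays. The desmosomal cadherin DSG3 read 361, against 117 in SUM1315, 109.8 in MDA-MB231 and 103 in SUM159. LAD1 (ladinin, an anchoring filament protein) read 1851, against 146 in SUM1315, 114 in MDA-MB231 and 121 in SUM159, 12.7-fold higher. HMLE/LacZ and HMLE/Gcnt2 had 14 and 16 of 24 genes of the list higher.

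Junction and polarity genes were fewer among the higher genes than in the other HMLE arrays. Of 32 epithelial junction genes compared, 12 were higher and none was lower in the array labelled Foxq1, beside 2.67% and 1.51% of all genes. In HMLE/LacZ 22 of 36 were higher and in HMLE/Gcnt2 27 of 38. List medians were 0.42, 1.74 and 2.13 in that order, over sets of genes that differ. A gene entered for an HMLE array when that array or a line lay above the limit. EHF and GRHL2 thus entered only for HMLE/LacZ (distances 2.57 and 1.02) and HMLE/Gcnt2 (3.10 and 1.44). CDH1 (E-cadherin) read 1191 in the array labelled Foxq1, against 175 in SUM1315, 106 in MDA-MB231 and 104 in SUM159, 6.79-fold higher, with HMLE/LacZ at 8097 and HMLE/Gcnt2 at 13304. The level was thus low beside the other HMLE arrays and still well above every line. JUP (plakoglobin, which links cadherins to the cytoskeleton) read 4895 against 207 in SUM1315, 195 in MDA-MB231 and 381 in SUM159, 12.9-fold higher. Its other 2 probes lay under the limit at 130.1 and 129 in the array labelled Foxq1 and did not lie above the lines, while HMLE/LacZ read 885 and 533. CD24, a surface glycoprotein of epithelial cells, read 6562 against 127 in SUM1315, 247 in MDA-MB231 and 1379 in SUM159, 4.76-fold higher. MAL2, a protein of apical transport, read 562 against 94.0 in SUM1315, 114 in MDA-MB231 and 113 in SUM159, at least 4.01-fold higher. CLDN7, a tight junction claudin, was 2.18-fold higher, with 422 against 95.8 in SUM1315, 194 in MDA-MB231 and 106 in SUM159, with HMLE/LacZ at 3487 and HMLE/Gcnt2 at 5120.0.

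For another 11 of the 32 genes the array labelled Foxq1 lay inside the range of the lines. CLDN1 (claudin-1) read 608, against 181 in SUM1315, 616 in MDA-MB231 and 511 in SUM159, while HMLE/LacZ read 3459. DDR1, a collagen receptor kinase of epithelia, read 1760.2, against 2051 in SUM1315, 513 in MDA-MB231 and 395 in SUM159, while HMLE/LacZ read 2040.0. ELF3, an epithelial ETS factor, read 236, against 154 in SUM1315, 275 in MDA-MB231 and 276 in SUM159. The 3 genes were thus no brighter than the brightest line. EPCAM, an epithelial adhesion molecule, was dim everywhere, with 249.8 in the array labelled Foxq1, 201 in SUM1315, 214 in MDA-MB231 and 199 in SUM159, with HMLE/LacZ at 356 and HMLE/Gcnt2 at 317. PKP3, a desmosomal plakophilin, read 137, under the detection limit and under all 3 lines, which read 205 in SUM1315, 165 in MDA-MB231 and 194 in SUM159.

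Promoters of 3 genes from these groups are shown because each holds the E-box that ZEB and SNAIL repressors recognize. CRB3 (an apical polarity protein) read 336 in the array labelled Foxq1, against 116 in SUM1315, 105 in MDA-MB231 and 124 in SUM159 (at least 2.4-fold higher), and a second detected probe lay 0.74 above the lines on the log2 scale, short of the threshold. RAB25 (an epithelial recycling GTPase) read 565, against 115 in SUM1315, 139 in MDA-MB231 and 120.2 in SUM159 (at least 4.03-fold higher), and KRT5 is described above. The lines below give the 250 bases before each start site from RefSeq, build GRCh38.p14, 5′ to 3′ on the gene's strand, with CACCTG and its reverse complement CAGGTG in capitals. They lie at chr19:6464021-6464270 on the plus strand for CRB3, at chr1:156060910-156061159 on the plus strand for RAB25 and at chr12:52520395-52520644 on the minus strand for KRT5.
CRB3: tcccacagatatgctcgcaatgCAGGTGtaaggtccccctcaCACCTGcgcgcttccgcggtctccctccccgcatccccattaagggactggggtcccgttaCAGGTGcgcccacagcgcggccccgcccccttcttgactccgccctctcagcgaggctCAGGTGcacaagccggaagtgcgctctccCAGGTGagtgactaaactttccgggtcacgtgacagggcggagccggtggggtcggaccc
RAB25: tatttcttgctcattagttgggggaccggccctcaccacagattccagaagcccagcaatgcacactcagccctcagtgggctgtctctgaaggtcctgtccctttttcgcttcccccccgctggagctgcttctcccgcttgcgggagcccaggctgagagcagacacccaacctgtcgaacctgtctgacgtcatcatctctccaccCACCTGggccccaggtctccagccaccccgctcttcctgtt
KRT5: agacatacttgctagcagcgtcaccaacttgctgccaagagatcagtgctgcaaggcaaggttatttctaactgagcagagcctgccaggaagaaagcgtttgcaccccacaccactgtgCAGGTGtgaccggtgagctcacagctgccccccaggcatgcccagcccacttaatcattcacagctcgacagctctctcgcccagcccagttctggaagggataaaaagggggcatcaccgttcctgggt
The CRB3 window holds 5 matches, 1 as CACCTG and 4 as CAGGTG, and the other windows hold 1 match each. Of all 35116 windows of that length in the RefSeq promoter table, 17.5% hold at least 1 match on either strand. A match describes the letters only. No binding was measured here.

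Squamous barrier genes, which keratinocytes use to build and defend the surface layer, were partly above the lines. Of 37 compared, 18 were higher, none was lower and 7 lay inside the range of the lines (median 0.75, under the 2-fold threshold of 1). Over all genes 2.67% were higher and 1.51% lower. HMLE/LacZ had 30 of 40 higher and HMLE/Gcnt2 33 of 40, over sets that include genes such as CRCT1, detected in these arrays but not in the 4 compared. FGFBP1, a carrier that releases fibroblast growth factors, read 7550.1 against 99.3 in SUM1315, 112 in MDA-MB231 and 99.99 in SUM159, at least 53.8-fold higher. KLK5, a kallikrein protease of skin shedding, read 3543 against 127 in SUM1315, 93.9 in MDA-MB231 and 109 in SUM159, at least 25.3-fold higher. Both were under the limit in every line. A second KLK5 probe was also called, and the remaining one read 134 in the array labelled Foxq1, under the limit, while HMLE/LacZ read 2436. S100A8 and S100A9, the chains of calprotectin, were at least 14.3-fold and at least 12.3-fold higher. They read 2007 and 1722 in the array labelled Foxq1, but 3364 and 4148 in SUM159/LacZ, so these genes did not separate HMLE from every cancer array. S100A2, an S100 protein of basal keratinocytes, read 4602 against 408 in SUM1315, 297 in MDA-MB231 and 399 in SUM159, 11.3-fold higher. PI3 (elafin, an elastase inhibitor) read 630.5 against 142 in SUM1315, 134 in MDA-MB231 and 128 in SUM159, and HMLE/LacZ read 8612. SUM159/LacZ read 458 for PI3, within 2-fold. ANXA8 (an annexin) and S100P (an S100 calcium-binding protein) lay inside the range of the lines, with 158 and 133 in the array labelled Foxq1, while HMLE/LacZ read 3545 and 2093.

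**Figure D2:**
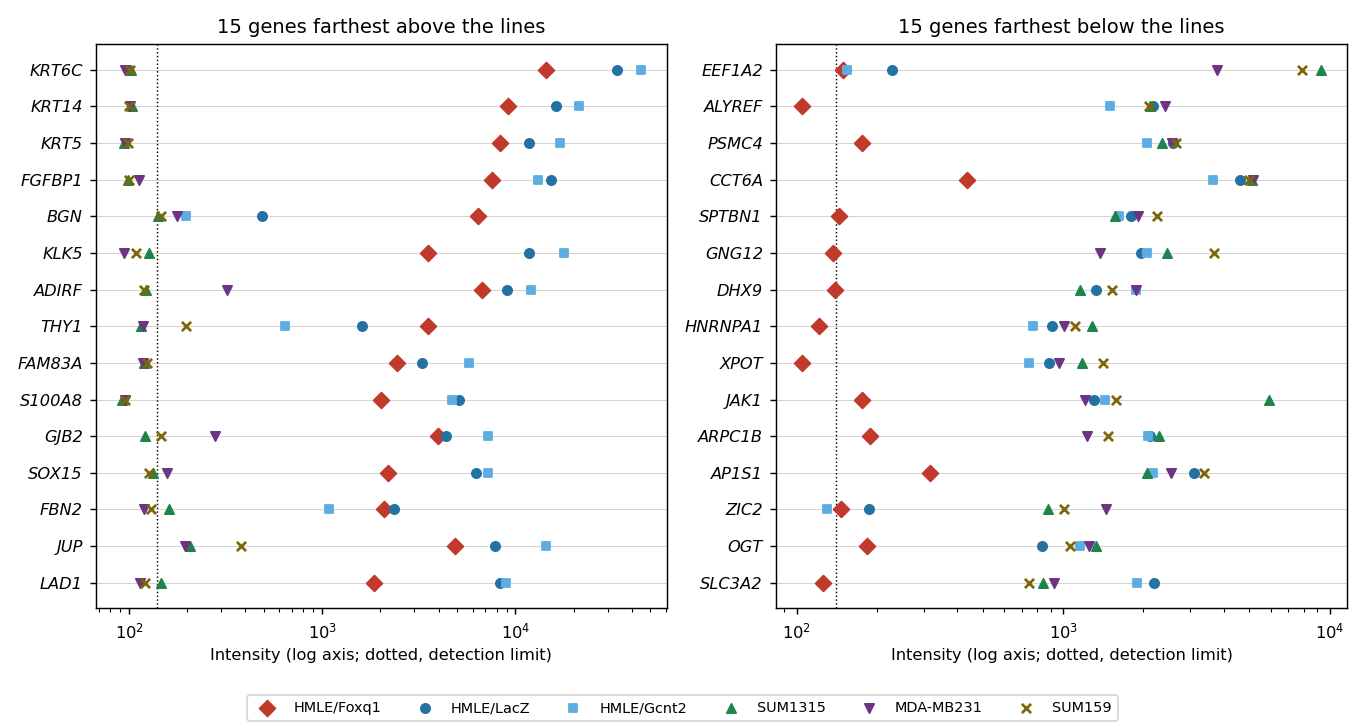
Intensity (log axis) of the 15 genes farthest above the lines (left) and the 15 farthest below (right) in the array labelled HMLE/Foxq1, HMLE/LacZ, HMLE/Gcnt2 and the 3 lines, with the detection limit of 140.3 dotted. In the left panel all 3 HMLE arrays lie to the right of the lines except that the HMLE/Gcnt2 value of BGN is near them, and in the right panel the array labelled Foxq1 usually stands alone at the left.

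For 13 of the 15 genes farthest above the lines, HMLE/LacZ read more than the array labelled Foxq1. BGN and THY1 were the exceptions, the only 2 of the 15 in which the array labelled Foxq1 was the brightest HMLE array. Among the others, SOX15 (a SOX transcription factor) read 2181, against 134 in SUM1315, 157 in MDA-MB231 and 127 in SUM159, GJB2 (connexin 26 of gap junctions) read 3985, against 121 in SUM1315, 279 in MDA-MB231 and 146 in SUM159, and ADIRF (a regulator of adipogenesis) read 6686, against 122 in SUM1315, 321 in MDA-MB231 and 119 in SUM159. They were 13.9-fold, 14.3-fold and 20.8-fold higher. FAM83A (a protein of EGFR signalling) was at least 17.4-fold higher. RNA of the whole culture was measured, so fewer cells of a kind and less RNA per cell cannot be told apart.

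Most matrix genes were not called, and a few lay far above the lines. Of 47 collagen and matrix genes compared, 7 were higher and 1 was lower (median 0.07). Inside the range of the lines lay 19 of the 47, beside 54.4% of all genes. Over all genes 2.67% were higher and 1.51% lower. HMLE/LacZ had 5 higher and 1 lower of 45 matrix genes, and HMLE/Gcnt2 2 higher and 3 lower of 42. BGN (biglycan, a small proteoglycan that binds collagen and TGF-beta) read 6442 in the array labelled Foxq1, against 141 in SUM1315, 176 in MDA-MB231 and 146 in SUM159, 36.6-fold higher, with HMLE/LacZ at 486 and HMLE/Gcnt2 at 197. COL1A1 (the alpha-1 chain of collagen I) read 5664, against 822 in SUM1315, 141 in MDA-MB231 and 1136 in SUM159, 4.99-fold higher. COL3A1 (collagen III) read 542, against 127 in SUM1315, 121 in MDA-MB231 and 124 in SUM159, at least 3.87-fold higher. That no line reached the array labelled Foxq1 for these genes follows from the calls. HMLE/LacZ was lower too, with 1361 for COL1A1 and 156 for COL3A1. DCN (decorin, the proteoglycan nearest to biglycan) was 8.19-fold higher by its brightest probe. That probe read 10807, against 145 in SUM1315, 144 in MDA-MB231 and 1319 in SUM159. Of the dimmer DCN probes 1 lay inside the range of the lines. The other was at the detection limit with 140.5, only 0.0026 above the lines on the log2 scale, so neither shared the call. FBN2 (fibrillin-2) read 2079, against 161 in SUM1315, 119.8 in MDA-MB231 and 130.3 in SUM159, and here HMLE/LacZ read more (2346). SPOCK1, a testican proteoglycan, was 2.21-fold higher, with 2811 against 529 in SUM1315, 111 in MDA-MB231 and 1272 in SUM159, but SUM159/IRX5 read 1711, within 2-fold. COL18A1 (collagen XVIII) read 288, against 1039 in SUM1315, 703 in MDA-MB231 and 857 in SUM159, 2.44-fold lower, a call its dim second probe did not share, and HMLE/LacZ read 275. SUM159/LacZ read 351 and SUM159/IRX5 265 for COL18A1, so the array labelled Foxq1 was not below every cancer array.

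Several collagens lay between lines that were themselves far apart. COL1A2 (the alpha-2 chain of collagen I) read 1722, against 8987 in SUM1315, 111 in MDA-MB231 and 109 in SUM159. COL5A2 read 2704, against 5530.4 in SUM1315, 126 in MDA-MB231 and 1166 in SUM159. COL8A1 read 725, against 261 in SUM1315, 5035 in MDA-MB231 and 12688 in SUM159. With lines this far apart, a position inside their range says little about likeness to any one line. SPARC, a collagen-binding matricellular protein, read 4392, against 100.4 in SUM1315, 134 in MDA-MB231 and 2631 in SUM159, 0.74 above the highest line on the log2 scale and short of the threshold. FN1 (fibronectin) read 284, against 113 in SUM1315, 116 in MDA-MB231 and 206 in SUM159, 0.47 above. TGFBI, an adhesion protein induced by TGF-beta, was bright in all, with 30909 against 31800.0 in SUM1315, 13069.7 in MDA-MB231 and 30251 in SUM159.

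Of 38 mesenchymal adhesion and cytoskeletal genes, 21 lay inside the range of the lines, 6 were higher and 2 lower. The share inside the range was close to the 54.4% of all genes. The list median was 0 in all 3 HMLE arrays, the same as for all genes. Over all genes 2.67% were higher and 1.51% lower. HMLE/LacZ had 3 higher and 3 lower of 38 mesenchymal genes, and HMLE/Gcnt2 2 higher and 4 lower of 38. VIM (vimentin) read 35642 in the array labelled Foxq1, against 42195 in SUM1315, 24964 in MDA-MB231 and 27249 in SUM159, with HMLE/LacZ at 16941 and HMLE/Gcnt2 at 7074. CDH2 (N-cadherin) read 3301, against 143 in SUM1315, 146 in MDA-MB231 and 7492 in SUM159. For N-cadherin the array labelled Foxq1 thus lay below SUM159 and far above SUM1315 and MDA-MB231, which were close to the limit. CD44, the hyaluronan receptor, read 15922 by its brightest probe, against 17756 in SUM1315, 17092 in MDA-MB231 and 8245 in SUM159, inside the range, while its other detected probes lay below the lines. AXL, a receptor kinase of mesenchymal cells, read 7053, against 2492 in SUM1315, 8493 in MDA-MB231 and 3776 in SUM159, also inside the range. THY1 (CD90, a fibroblast surface protein) read 3526, against 116 in SUM1315, 119 in MDA-MB231 and 198 in SUM159, 17.8-fold higher, and PDGFRB (the PDGF receptor beta) read 1268, against 111 in SUM1315, 487 in MDA-MB231 and 385 in SUM159, 2.6-fold higher. Both also exceeded HMLE/LacZ, which read 1612 for THY1 and 155 for PDGFRB. The contractile gene TAGLN (transgelin) was 2.74-fold higher and MYL9 (myosin light chain 9) 2.66-fold by their brightest probes, but in each gene another detected probe did not lie above the lines. S100A4, an S100 protein of motile mesenchymal cells, read 2636, against 21430.0 in SUM1315, 5561 in MDA-MB231 and 10551 in SUM159, 2.1097-fold lower, with HMLE/LacZ at 750.2 and HMLE/Gcnt2 at 619.9. A second probe lay on the same side, and SUM159/IRX5 read 2535, no higher than the array labelled Foxq1.

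The transcription factors of the transition did not go one way. ZEB1 read 104 in the array labelled Foxq1, under the limit, against 312 in SUM1315, 286 in MDA-MB231 and 373 in SUM159, at least 2.04-fold lower, with HMLE/LacZ at 139 and HMLE/Gcnt2 at 113. All 3 HMLE arrays lay under the limit for it. ZEB2 read 548, against 338 in SUM1315, 221 in MDA-MB231 and 359 in SUM159, above each line by less than 2-fold. TWIST1 read 3685, against 2699.7 in SUM1315, 358 in MDA-MB231 and 886 in SUM159, and SNAI2 (SLUG) read 4135, against 2365 in SUM1315, 778 in MDA-MB231 and 1553 in SUM159. Both were the highest of the 4 arrays by less than 2-fold, 0.45 and 0.81 on the log2 scale. HMLE/LacZ read 848 for TWIST1 and 3932 for SNAI2. PRRX1, a homeobox factor of mesenchyme, read 1203, against 97.3 in SUM1315, 101 in MDA-MB231 and 194 in SUM159, 6.21-fold higher. In the epithelial direction OVOL2, a zinc finger repressor of ZEB1, read 330.2, against 106 in SUM1315, 86.6 in MDA-MB231 and 109 in SUM159, at least 2.35-fold higher.

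**Figure D3:**
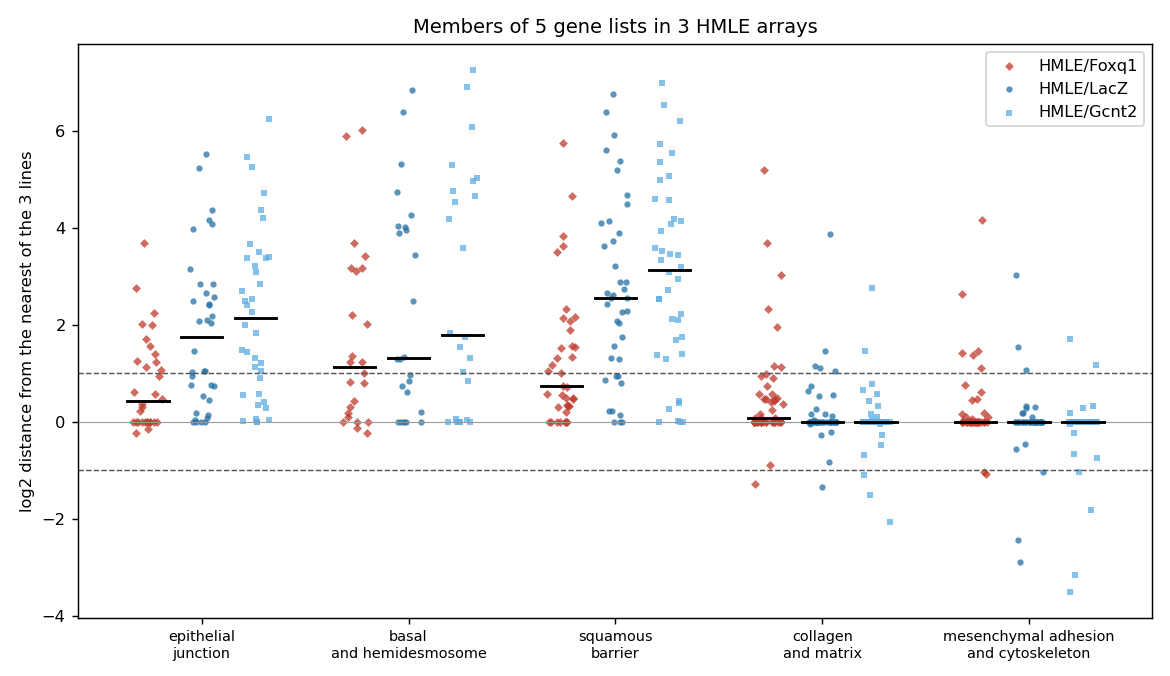
Signed log2 distance of each list member from the nearest of the 3 lines in the array labelled HMLE/Foxq1 (diamonds), HMLE/LacZ (circles) and HMLE/Gcnt2 (squares), where 0 means inside the range of the lines, dashed lines mark 2-fold and black bars are medians over the members plotted. The epithelial junction medians are 0.42, 1.74 and 2.13 and the squamous medians 0.75, 2.56 and 3.14 in that order of arrays. In the array labelled Foxq1, 19 of 47 matrix and 21 of 38 mesenchymal members lie at 0, beside 54.4% of all genes. BGN, FBN2, DCN and THY1 lie above 3 there, and FBN2 and THY1 also do in HMLE/LacZ. A member is plotted for an array when that array or a line lay above the limit, so the members differ between arrays.

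Some of the higher genes were brightest in the array labelled Foxq1 among all 8 arrays. In 67 of the 329 higher genes (20.4%) it lay at least 2-fold above the 4 remaining arrays as well, against 4 of 374 such genes for HMLE/LacZ and 12 of 496 for HMLE/Gcnt2, a pair of arrays that are close to each other. The following were chosen after their values were seen. APOE (apolipoprotein E) read 2183, against 129.9 in SUM1315, 126 in MDA-MB231 and 176 in SUM159, with HMLE/LacZ at 213 and HMLE/Gcnt2 at 278. HSD17B2, which inactivates estradiol and testosterone, read 1573, against 98.0 in SUM1315, 96.2 in MDA-MB231 and 96.0 in SUM159, with HMLE/LacZ at 304 and HMLE/Gcnt2 at 317. ACKR3 (the atypical chemokine receptor CXCR7) read 1351, against 117 in SUM1315, 132 in MDA-MB231 and 141 in SUM159, with HMLE/LacZ at 255 and HMLE/Gcnt2 at 376. In each the array labelled Foxq1 lay at least 2-fold above all 7 other arrays. HTRA1, a secreted serine protease, read 12834, against 2267 in SUM1315, 1197 in MDA-MB231 and 1881 in SUM159, with HMLE/LacZ at 3064 and HMLE/Gcnt2 at 1703. PTGES (prostaglandin E synthase) read 4999.9, against 243 in SUM1315, 189 in MDA-MB231 and 1039 in SUM159, with HMLE/LacZ at 1469 and HMLE/Gcnt2 at 1313. MLPH (melanophilin, an adaptor of melanosome transport placed in the luminal list) was 4.45-fold higher. It read 6788, against 449.6 in SUM1315, 1525 in MDA-MB231 and 249 in SUM159. MLPH was the 1 of 13 luminal genes called, beside 2.67% higher and 1.51% lower over all genes. HMLE/LacZ had 3 of 14 luminal genes higher and HMLE/Gcnt2 4 of 14.

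Of 14 genes of the insulin-like growth factor list, 4 were higher and none was lower (median 0.02), beside 2.67% higher and 1.51% lower over all genes, among them IGFBP6, which prefers IGF2, with 10822 against 237 in SUM1315, 861 in MDA-MB231 and 2945 in SUM159 (3.68-fold), and IGFBP7, with 8403 against 101 in SUM1315, 3499.8 in MDA-MB231 and 1395 in SUM159 (2.4-fold). Of 26 TGF-beta and BMP genes, 4 were higher and none was lower. GDF15, a stress-induced ligand of the family, read 1198, against 149.5 in SUM1315, 141 in MDA-MB231 and 142 in SUM159, 8.01-fold higher, although SUM159/LacZ read 1293 and SUM159/IRX5 2004. GREM1, a BMP antagonist, read 669, against 99.0 in SUM1315, 112 in MDA-MB231 and 111 in SUM159, at least 4.77-fold higher. Its ligand BMP2 was 2.22-fold higher, less than 2-fold above SUM159/LacZ (211) and below HMLE/Gcnt2 (932), and the receptor TGFBR2 2.85-fold by its brightest probe, while its dim one lay below the lines. Of 25 WNT genes, 2 were higher and 1 lower, few members to set beside the 2.67% and 1.51% of all genes. WNT5A, a noncanonical ligand, read 1242, against 290.1 in SUM1315, 102 in MDA-MB231 and 337 in SUM159, 3.68-fold higher. SFRP1, a secreted WNT inhibitor, read 763, against 102 in SUM1315, 104 in MDA-MB231 and 96.6 in SUM159, at least 5.44-fold higher, with HMLE/LacZ at 1501 and HMLE/Gcnt2 at 1588. CTNNB1 (beta-catenin) read 206 by its only detected probe, 3.3-fold lower than the lines, with HMLE/LacZ at 1629 and HMLE/Gcnt2 at 1639. The array labelled Foxq1 thus lay below the other HMLE arrays as well for CTNNB1. Of 32 receptor kinase and EGFR ligand genes, 3 were higher and none was lower, with TGFA, an EGFR ligand, 2.95-fold and FGFR3 2.54-fold higher beside PDGFRB. HMLE/LacZ read 2034 for TGFA and 948 for FGFR3, both above the array labelled Foxq1. A second FGFR3 probe lay only 0.04 above the lines on the log2 scale.

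Of 36 interferon response genes, 5 were higher and none was lower (median 0). Over all genes 2.67% were higher and 1.51% lower, shares that stand beside every count of this paragraph. HMLE/LacZ had 3 of 35 interferon genes higher and HMLE/Gcnt2 2 of 35. MX1, an antiviral GTPase, read 4615, against 1008 in SUM1315, 1220.2 in MDA-MB231 and 196 in SUM159, 3.78-fold higher, with HMLE/LacZ at 2283 and HMLE/Gcnt2 at 788. EPSTI1, an interferon-induced gene of stroma and epithelium, read 1867, against 104 in SUM1315, 333 in MDA-MB231 and 187 in SUM159, 5.6-fold higher. IFI44L was 3.57-fold higher, and OASL 3.43-fold by its brightest probe only. Without SUM1315 in the comparison 11 interferon genes were higher. Of 30 inflammatory genes 3 were higher and none was lower, while HMLE/LacZ had 4 of 30 higher and HMLE/Gcnt2 7 of 29. Among the 3 were the chemokine CXCL6 (at least 4.86-fold) and TNFAIP3, a brake on NF-kB (2.53-fold, with SUM159/LacZ at 1507, within 2-fold). Antigen presentation genes gave no call among 20. Of 23 matrix proteases and inhibitors 4 were higher and none was lower, with MMP28 at least 5.44-fold, the inhibitor TIMP3 3.01-fold and MMP7 2.94-fold higher. HMLE/LacZ had 5 of 24 genes of this list higher and HMLE/Gcnt2 7 of 24. For TIMP3, SUM159/IRX5 read 763 beside 774 in the array labelled Foxq1, so the call was lost with the other SUM159 arrays added.

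Cholesterol synthesis genes lay to the high side of the lines. Of 20 compared, 4 were higher and none was lower, beside 2.67% and 1.51% of all genes. The median distance was 0.56, beside 0 for all genes, 0.36 in HMLE/LacZ and 0.33 in HMLE/Gcnt2. HMLE/LacZ had 4 of 20 genes of the list higher and HMLE/Gcnt2 3 of 21, so the high side was common to the HMLE arrays. DHCR7, the last reductase of the pathway, read 2589.5, against 1055 in SUM1315, 949 in MDA-MB231 and 887 in SUM159, 2.45-fold higher. SQLE (squalene epoxidase) read 7311, against 3554 in SUM1315, 1059 in MDA-MB231 and 2035 in SUM159, 2.06-fold higher. SREBF1, which codes for a sterol-regulated transcription factor, was 2.52-fold higher and MSMO1 2.24-fold by their brightest probes, while another probe of each did not lie above the lines. By the detected probe nearest to the lines 2 of the genes were higher, and without SUM1315 8 were. HMLE/LacZ read 9342 for SQLE and 5534 for MSMO1, above the array labelled Foxq1, and 2116 for DHCR7 and 849 for SREBF1, below it.

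Genes lower than all 3 lines need to be read beside the probe pattern. In 111 of the 187 lower genes (59.4%) the array labelled Foxq1 also lay at least 2-fold below the 4 remaining arrays, against 0 of 77 for HMLE/LacZ and 11 of 134 for HMLE/Gcnt2. This held for 13 of the 15 farthest below the lines, 11 of which have a single probe. ALYREF (mRNA export) read 105, against 2110.3 in SUM1315, 2405 in MDA-MB231 and 2107 in SUM159, with HMLE/LacZ at 2169 and HMLE/Gcnt2 at 1504, at least 15-fold lower. GNG12 (a G protein subunit) read 137, against 2462 in SUM1315, 1372 in MDA-MB231 and 3667 in SUM159, at least 9.78-fold lower. The 7 other arrays lay between 1259 and 2405 for ALYREF and between 1372 and 3667 for GNG12, so the array labelled Foxq1 stood alone. For PSMC4, a proteasome ATPase, 2 probes were low: the brighter read 176, against 2359 in SUM1315, 2563 in MDA-MB231 and 2644 in SUM159, and the distances were -3.74 and -2.88 on the log2 scale. For CCT6A, a chaperonin subunit, the distances were -3.51 for the brighter probe and -0.17 for the other. TCP1, another chaperonin subunit, read 194, against 2702 in SUM1315, 2491 in MDA-MB231 and 4053 in SUM159, by its brighter probe, while its dim second probe lay inside the range. Of 35 proteasome and chaperonin genes these 3 were lower, beside 1.51% of all genes, and by the detected probe nearest to the lines 1 was.

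SPTBN1 (a spectrin), DHX9 (an RNA helicase), XPOT (tRNA export), JAK1 (a cytokine receptor kinase) and ARPC1B (an Arp2/3 subunit) were 10.9-fold, at least 8.26-fold, at least 6.87-fold, 6.82-fold and 6.53-fold lower, and HMLE/LacZ read 1802, 1329.9, 882, 1306 and 2112 for them. AP1S1 (an adaptor of vesicle coats), OGT (the O-GlcNAc transferase) and SLC3A2 (the heavy chain of amino acid transporters) were 6.52-fold, 5.74-fold and at least 5.29-fold lower. HNRNPA1, an RNA-binding protein with many processed copies in the genome, was at least 7.19-fold lower by its main probe and 0.46 below on the log2 scale by another. In these genes the array labelled Foxq1 differed from the other HMLE arrays as well as from the lines, and most of them have no second probe. The other probes of SPTBN1 had distances of -1.97 and -0.03 on the log2 scale.

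**Figure D4:**
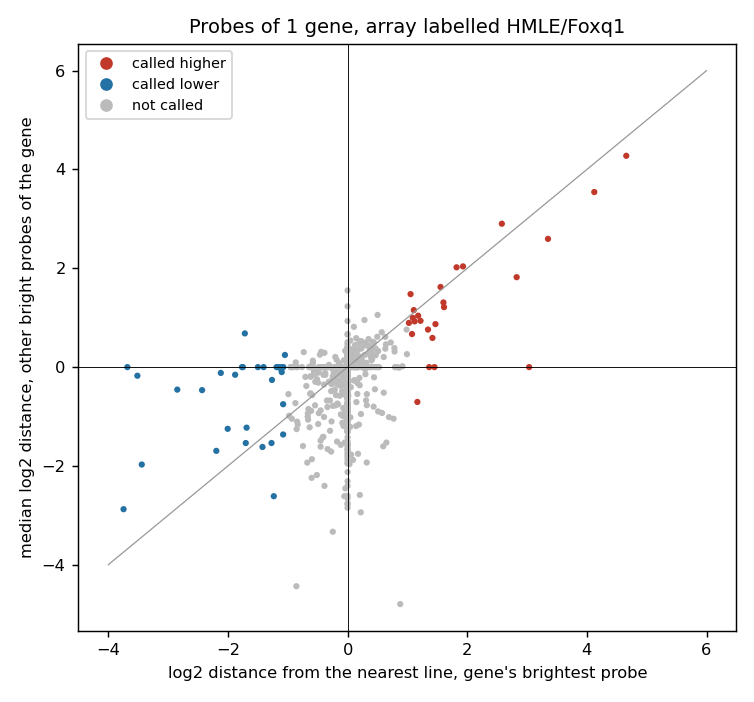
Distance of the gene's brightest probe from the nearest line (horizontal, log2) against the median distance of its other bright probes (vertical, log2) in the array labelled HMLE/Foxq1, for genes with at least 2 probes above 500, where the grey line marks equal distances. Of 25 higher genes (red) 21 had all bright probes above the lines, while of 30 lower genes (blue) 18 had all bright probes below, and uncalled genes (grey) run further down than up at a horizontal value of 0.

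Among genes with at least 2 bright probes, 25 were higher and 30 lower. All bright probes lay above the lines in 21 of the 25, and all lay below in 18 of the 30. In HMLE/LacZ the counts were 27 of 27 and 7 of 7, and in HMLE/Gcnt2 34 of 35 and 16 of 18. With the detected probe nearest to the lines taken for each gene, 275 genes were higher and 137 lower.

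The remaining 76 lower genes were those in which at least 1 other array came within 2-fold, and some of them were low in all 3 HMLE arrays. EEF1A2, a translation elongation factor of muscle and neurons, read 149.5, against 9312 in SUM1315, 3778 in MDA-MB231 and 7877 in SUM159, 25.3-fold lower, with HMLE/LacZ at 228 and HMLE/Gcnt2 at 155. ZIC2, a zinc finger factor of the developing brain, read 146, against 877 in SUM1315, 1453 in MDA-MB231 and 1010.2 in SUM159, 5.99-fold lower, with HMLE/LacZ at 187 and HMLE/Gcnt2 at 130.1. GCNT2, the branching enzyme of I antigen, read 154 by its probe of highest mean log2 intensity, against 680.0 in SUM1315, 809 in MDA-MB231 and 621 in SUM159. It was 4.04-fold lower, with HMLE/LacZ at 123 and HMLE/Gcnt2 at 129. Another detected probe of GCNT2, which read 89.1 in the array labelled Foxq1 and 9104 in HMLE/Gcnt2, was not called. HMLE/LacZ and HMLE/Gcnt2 also lay below the lines for EEF1A2, for ZIC2 and, by the called probe only, for GCNT2. LRP3 (a lipoprotein receptor relative) and TBL1X (a corepressor subunit), chosen after their values were seen, read 191 and 320.1, against 1337 in SUM1315, 875 in MDA-MB231 and 1255 in SUM159 for LRP3 and 1364 in SUM1315, 1712 in MDA-MB231 and 1891 in SUM159 for TBL1X. BCL2, an inhibitor of apoptosis named on the same basis, read 142, against 378 in SUM1315, 531 in MDA-MB231 and 301 in SUM159, with HMLE/LacZ at 136 and HMLE/Gcnt2 at 114.

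Cell cycle lists gave few calls, beside 2.67% higher and 1.51% lower over all genes. Of 38 E2F target and replication genes, 2 were higher and 3 lower. Of 33 mitosis genes none was higher and CENPF, a kinetochore protein, was 2.05-fold lower. CENPF read 786 in the array labelled Foxq1, and less in HMLE/LacZ (527) and HMLE/Gcnt2 (494). HMLE/LacZ had 1 and HMLE/Gcnt2 2 of 33 mitosis genes lower. RRM2, the small subunit of ribonucleotide reductase, read 205, against 1292 in SUM1315, 759.9 in MDA-MB231 and 2164 in SUM159, 3.71-fold lower, and HMLE/LacZ read 1799. RFC3, a clamp loader subunit, was 3.4-fold lower by its brightest probe and inside the range by 2 others. UHRF1, a reader of DNA methylation, was at least 2.25-fold lower, and the helicase subunit MCM5 2.29-fold higher. Of 22 p53 targets and cell cycle inhibitors, 4 were higher and 1 lower. CDKN1A (p21) read 8987, against 1807 in SUM1315, 1724 in MDA-MB231 and 2409 in SUM159, 3.73-fold higher, with HMLE/LacZ at 8191 and HMLE/Gcnt2 at 13252. Its other probe was near the limit in the 4 arrays. TP53I3 was 2.9-fold higher by its brighter probe and inside the range by a dim one, and PHLDA3 2.45-fold. RB1, the retinoblastoma protein gene, read 199, against 1131 in SUM1315, 747 in MDA-MB231 and 695 in SUM159, 3.48-fold lower, with HMLE/LacZ at 658 and HMLE/Gcnt2 at 771. With SUM159/LacZ and SUM159/IRX5 added to the lines RB1, CENPF and UHRF1 were no longer called.

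Other lists gave few calls. Homeobox genes had 2 higher of 30, HOXB7 (6.12-fold) and IRX4 (at least 3.97-fold), and IRX5 read 211, against 1216 in SUM1315, 144 in MDA-MB231 and 163 in SUM159. Forkhead and SOX factors had 1 higher of 18, SOX15. Detoxification genes had 2 higher of 28, ALDH1A3 (a retinal dehydrogenase) at 1521, against 213 in SUM1315, 407 in MDA-MB231 and 295 in SUM159, and the metallothionein MT1E (2.55-fold), whose probe may read its close paralogs. Hypoxia and glycolysis genes had 2 higher, ANGPTL4 (by its brightest probe) and ALDOC, and PGAM1 lower, of 30. Amino acid transporters had SLC7A8 higher and SLC3A2 lower of 21, and the unfolded protein list had PDIA6 and SLC3A2 lower of 29. Integrins had ITGB4 and ITGA5 higher of 16. YAP and SRF targets had TAGLN and MYL9 higher and CRIM1 lower of 25, and ribosomal proteins had RPL6 lower of 48. The lower genes PGAM1, PDIA6, SLC3A2, CRIM1 and RPL6 read 2362, 482, 126, 236 and 938 in the array labelled Foxq1. HMLE/LacZ read 9815, 2561, 2195, 1171 and 5247 for them. Cancer-testis antigens had no call among 15. None of the lists in this paragraph held more than 2 calls in 1 direction, beside 2.67% higher and 1.51% lower over all genes.

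Among markers of other cell types 1 gene was called. CD14, a monocyte receptor that some epithelial cells also express, read 1574, against 148 in SUM1315, 222 in MDA-MB231 and 179 in SUM159, 7.09-fold higher, with HMLE/LacZ at 645 and HMLE/Gcnt2 at 383, and a second probe lay on the same side. SUM159/IRX5 read 1072, within 2-fold. CD14 was the 1 leukocyte gene called of 10. Over all genes 2.67% were higher and 1.51% lower, shares that stand beside every count of calls in this paragraph. HMLE/LacZ had 2 of 10 leukocyte genes higher and HMLE/Gcnt2 1 of 11. PTPRC (CD45), the pan-leukocyte marker, lay under the limit in the 4 arrays at 112, against 115 in SUM1315, 120.1 in MDA-MB231 and 126 in SUM159. Of 17 leukocyte genes on the array 7 lay above the limit in the array labelled Foxq1, against 4 in SUM1315, 10 in MDA-MB231 and 6 in SUM159. Their summed intensity was 4573 in the array labelled Foxq1, against 3914 in SUM1315, 4379 in MDA-MB231 and 5550.2 in SUM159. Endothelial (6 compared), adipocyte (5) and melanocytic or neural (9) lists gave no call, and the defining genes VWF, CDH5, ADIPOQ, MLANA and SOX10 lay under the limit in the array labelled Foxq1 and in the 3 lines. Melanocytic or neural genes above the limit numbered 8 of 13 in the array labelled Foxq1, against 3 in SUM1315, 3 in MDA-MB231 and 4 in SUM159, with summed intensities of 5687, 4732, 4389 and 7122 in that order. The part of these markers in the results was not tested.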

How the data were processed

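Total RNA of 8 cultures was labelled with biotin and measured on 8 Illumina bead arrays, 1 per group, with groups taken from the sample titles. The deposited table holds probe intensity on a linear scale, 73.3 to 56056.2. Ranked within each array, the authors' intensities have nearly the same distribution (at each rank the coefficient of variation is 1.27% or less), as quantile normalization leaves them. How background was treated is not given in the sources used. GenomeStudio, lumi 1.14 and R 2.11.1 are named, without roles, per the submitters' processing notes. A second, unnormalized table was not used, because no label ties its 16 columns of signals and detection values to samples.

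Of 24526 probes, the platform table names 1 gene for 21834 and no gene for 2692. RefSeq's current symbol replaced the old one by Entrez number for 21813 probes, and 21 kept the array's name. The result was 16922 genes, 81.1% of them with 1 probe. A gene was its probe of highest mean log2 intensity over the 8 arrays, which is the probe called brightest. Intensities were put on a log2 scale as deposited, so a fold is a ratio of intensities and understates differences of dim genes. The detection limit mirrors, on the log2 scale, how far intensities reach under their mode of 109.2, at a tail of 0.01, which gave 140.3. Between 10440 genes (SUM159) and 10770 genes (HMLE/Foxq1) lay above it. The number of arrays limits the precision of every value.

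Members, gene lists and settings were chosen with earlier results of these data known, so no list is independent evidence. Named genes were the 15 farthest above and the 15 farthest below the lines whose other detected probes lay on the same side, up to 4 per direction of each of 33 lists, and CDH1, EPCAM, CDH2, VIM, FN1, CD44, ZEB1, SNAI2, TWIST1, FOXQ1, GCNT2 and IRX5, without open reading frame or clone names. List members beyond these are named as examples chosen after their values were seen. The counting was tested on simulated data. Alternatives were normexp with an offset of 50 and cyclic loess (limma 3.58.1, R 4.3.3), other probe rules, other limits, a 3-fold threshold and other sets of lines. Calculations used Python 3.11.15, numpy 2.4.6, pandas 2.3.3 and matplotlib 3.10.9.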

Additional observations from a re-analysis of the deposited data

How the results depend on the processing

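The counts of 329 higher and 187 lower genes changed with the threshold and with the set of lines. At 3-fold they were 127 and 63. Leaving out 1 line in turn gave 468 to 526 higher and 287 to 290 lower genes, since fewer lines have to be exceeded. Every other alternative kept both counts within 1.5 times: normexp background correction gave 381 and 222, cyclic loess 331 and 192, the mean of the probes 270 and 160, the detected probe nearest to the lines 275 and 137, a detection tail of 0.05 339 and 190, no limit 352 and 205, and the addition of SUM159/LacZ and SUM159/IRX5 273 and 151. Of 101 named genes that were called, none changed side under any of these, 83 kept the call with the mean of the probes, 79 with the nearest probe and 86 with the added SUM159 arrays. No paired analysis was possible because each group is 1 array. List counts moved with the set of lines as well: 12, 11 and 14 matrix genes were higher without SUM1315, MDA-MB231 and SUM159 in turn (7 with all), and 9, 8 and 10 mesenchymal genes (6 with all), while interferon genes numbered 11 (5 with all) and cholesterol genes 8 (4 with all) without SUM1315. Genes under the detection limit in an array have only a bound there, and folds of dim genes are compressed toward background.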

Other observations

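Neighbouring genes of chromosome 9 were brighter in the HMLE arrays than in the lines, where CDKN2A and MTAP lay under the detection limit. They were chosen after their values were seen. CDKN2A, which codes for the cell cycle inhibitor p16 and for ARF, read 1430.5 in the array labelled Foxq1, against 94.9 in SUM1315, 128 in MDA-MB231 and 118 in SUM159, at least 10.2-fold higher, with HMLE/LacZ at 874 and HMLE/Gcnt2 at 1015. A second probe of the gene lay 2.60 above the lines on the log2 scale and a dim one 0.06 above. MTAP, a purine salvage enzyme and the next protein-coding gene in the RefSeq annotation, read 1386, against 101 in SUM1315, 101 in MDA-MB231 and 120.0 in SUM159, at least 9.88-fold higher, with HMLE/LacZ at 1616 and HMLE/Gcnt2 at 1789. CDKN2B, the neighbour on the other side, read 577, against 210.4 in SUM1315, 215 in MDA-MB231 and 199 in SUM159, 2.68-fold higher. SUM159/LacZ read 126 for CDKN2A and 96.9 for MTAP, like untransfected SUM159. No DNA was measured.

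MT1M and MT1F, metallothionein genes for small proteins that bind zinc and copper, were also chosen after their values were seen. MT1M read 863 in the array labelled Foxq1, against 109.8 in SUM1315, 101 in MDA-MB231 and 109.9 in SUM159, at least 6.15-fold higher, with HMLE/LacZ at 149 and HMLE/Gcnt2 at 112. MT1F read 2831, against 142 in SUM1315, 408 in MDA-MB231 and 195 in SUM159, 6.93-fold higher, with HMLE/LacZ at 1783 and HMLE/Gcnt2 at 1622. MT2A, of the same family, lay inside the range of the lines at 48498, and MT1X lay 0.32 above them on the log2 scale and was not called. These genes are close copies of each other, and which copy a probe measured was not tested.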
